A study of Mus musculus with 12 samples.

Results

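The mRNAs of 9 genes that restrain or answer the lipid kinase PI3K were followed in mouse cytotoxic T lymphocytes (CTL): Pik3ip1, Inpp5d and Inpp4b, which antagonise PI3K signalling, Irs2 and Tbc1d4 of the insulin and AKT pathway, and Txnip, Sesn1, Trp53inp1 and Ccng2, which are known as targets of FOXO factors or as stress genes. They were chosen by name, with the results of the PI3K inhibitor comparison already known, and were selected on their changes there, so that their values in the comparisons that use the peptide or peptide plus PI3K inhibitor cultures are given as a description without p-values. All 9 were present among the 11022 genes of the deposited table, and they range in mean from under 1 to over 100 FPKM, which is fragments scaled to exon length and library size.

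The cells were P14 CD8 T cells, which share a transgenic TCR for the gp33-41 peptide of lymphocytic choriomeningitis virus and came from lymph nodes or spleens of 3 female mice aged 9 to 13 weeks. After 48 h of activation with peptide, IL-2 and IL-12 and 5 further days in IL-2, the CTL of all 4 groups were kept in IL-2 at 20 ng/mL, and there were 3 cultures in each group. One group was left without peptide (Unstimulated), one was given 100 ng/mL of peptide for 4 h (TCR), one received the peptide with 10 µM IC87114, an inhibitor of PI3K p110δ (TCR + PI3Kdi), and one the peptide with 2 µM PD184252, an inhibitor of the kinase MEK (TCR + MEKi). The transgenic receptor makes these cells 1 specificity against 1 peptide, the cells were cultured effectors rather than cells taken from tissue, and each inhibitor was used at 1 dose and 1 time. All 7 T cell markers were in the table, at a summed 2210 to 2834 FPKM per culture, and the 3 cytolytic genes summed to 15635 to 22901 FPKM. Defining markers of B cells, myeloid cells and erythroid cells were absent from the table, while Cd4 was at 0.28 to 3.65 and the NK cell marker Klrb1c at 1.31 to 6.23 FPKM. Both moved with the groups: Cd4 was at 0.773 ± 0.293 FPKM unstimulated, 2.69 ± 0.168 with TCR, 2.94 ± 0.875 under PI3K inhibition and 0.450 ± 0.193 under MEK inhibition (SD, n = 3). Klrb1c was at 5.39 ± 0.826 FPKM unstimulated, 1.79 ± 0.142 with TCR, 2.27 ± 0.210 under PI3K inhibition and 1.59 ± 0.313 under MEK inhibition. Cd4 was called higher with TCR and lower with the MEK inhibitor against TCR, and Klrb1c lower with TCR, and their part in the results was not tested. In such bulk samples fewer cells that express a gene and less RNA per cell cannot be told apart. Replicates of a group correlated across genes at r of 0.993 to 0.995, and no culture stood apart.

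PI3K makes the membrane lipid PIP3, which recruits the kinase AKT. AKT phosphorylates FOXO transcription factors, which then leave the nucleus, so that FOXO target genes are silenced while PI3K is active and expressed when it is not. The pathway is opposed by lipid phosphatases that break PIP3 down and by proteins that hold PI3K itself in check, and in T cells it is known for control of trafficking, growth and metabolism, while MEK activates the separate ERK pathway.

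Upstream sequence was searched for the motif that FOXO factors are known to bind, because several of the 9 genes were higher with the PI3K inhibitor. RefSeq windows of the 250 bases before the transcription start (GRCm38.p6) were found for 8 of the 9 genes, in 9 windows as Sesn1 has 2 starts, and Trp53inp1 was not among them. The motif GTAAACA, searched on both strands, was in 1 of these 9 windows, that of Txnip, and in 3.17% of all 32851 windows. The shorter core AAACAA, searched in the same way, overlaps the longer motif by 5 bases in Txnip. It was in 5 of the 9 windows and in 18.34% of all windows. These were the windows of Txnip, Tbc1d4, Irs2 and Ccng2 and 1 of the 2 windows of Sesn1, which holds both stretches shown. A match is a description of letters and not of binding. As the genes were chosen by name, some of them as known FOXO targets, nothing is read from these shares. The whole windows of Txnip and Tbc1d4 are shown as the highest of the 9 genes and the one with the largest difference under the PI3K inhibitor, and the other genes by 30 bases around the core, all 5′ to 3′ on the strand of the gene, with both motifs in capitals. The Ccng2 stretch lies within an exon of a GENCODE transcript with an earlier start.
Txnip, chr3:96557707-96557956, plus strand: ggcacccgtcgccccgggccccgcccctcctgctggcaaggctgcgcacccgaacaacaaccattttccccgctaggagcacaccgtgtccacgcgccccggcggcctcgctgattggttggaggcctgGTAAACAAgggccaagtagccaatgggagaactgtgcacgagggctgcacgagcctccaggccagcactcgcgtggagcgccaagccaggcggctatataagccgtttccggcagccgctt
Tbc1d4, chr14:101609192-101609441, minus strand: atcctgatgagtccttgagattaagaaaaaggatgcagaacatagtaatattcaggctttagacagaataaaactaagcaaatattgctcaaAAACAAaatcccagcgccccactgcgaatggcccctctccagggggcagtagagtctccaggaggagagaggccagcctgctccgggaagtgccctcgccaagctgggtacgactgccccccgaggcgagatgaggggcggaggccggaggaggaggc
Irs2, chr8:11008950-11008979, minus strand: cagagtcacgtgTTGTTTtgctcttagttc
Sesn1, chr10:41887258-41887287, plus strand: tggccttcaagcTTGTTTttgctggcctgg
Sesn1, chr10:41887394-41887423, plus strand: gggcctcgcgtcTTGTTTgtcggagccgcc
Ccng2, chr5:93267543-93267572, plus strand: gggcgtcgcagactcaAAACAAAAACAAgg

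The window of Irs2 also holds the E-box CACGTG, in 6.02% of all windows, directly before the forkhead core, and none of the other 8 windows holds it. The Txnip window, whose gene is known to be driven by MondoA through E-box like elements, did not hold these exact letters in its 250 bases. Elements with other letters were not searched for. The printed Txnip window does hold the similar letters CACGAG, and whether MondoA acts there was not tested.

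**Figure D1:**
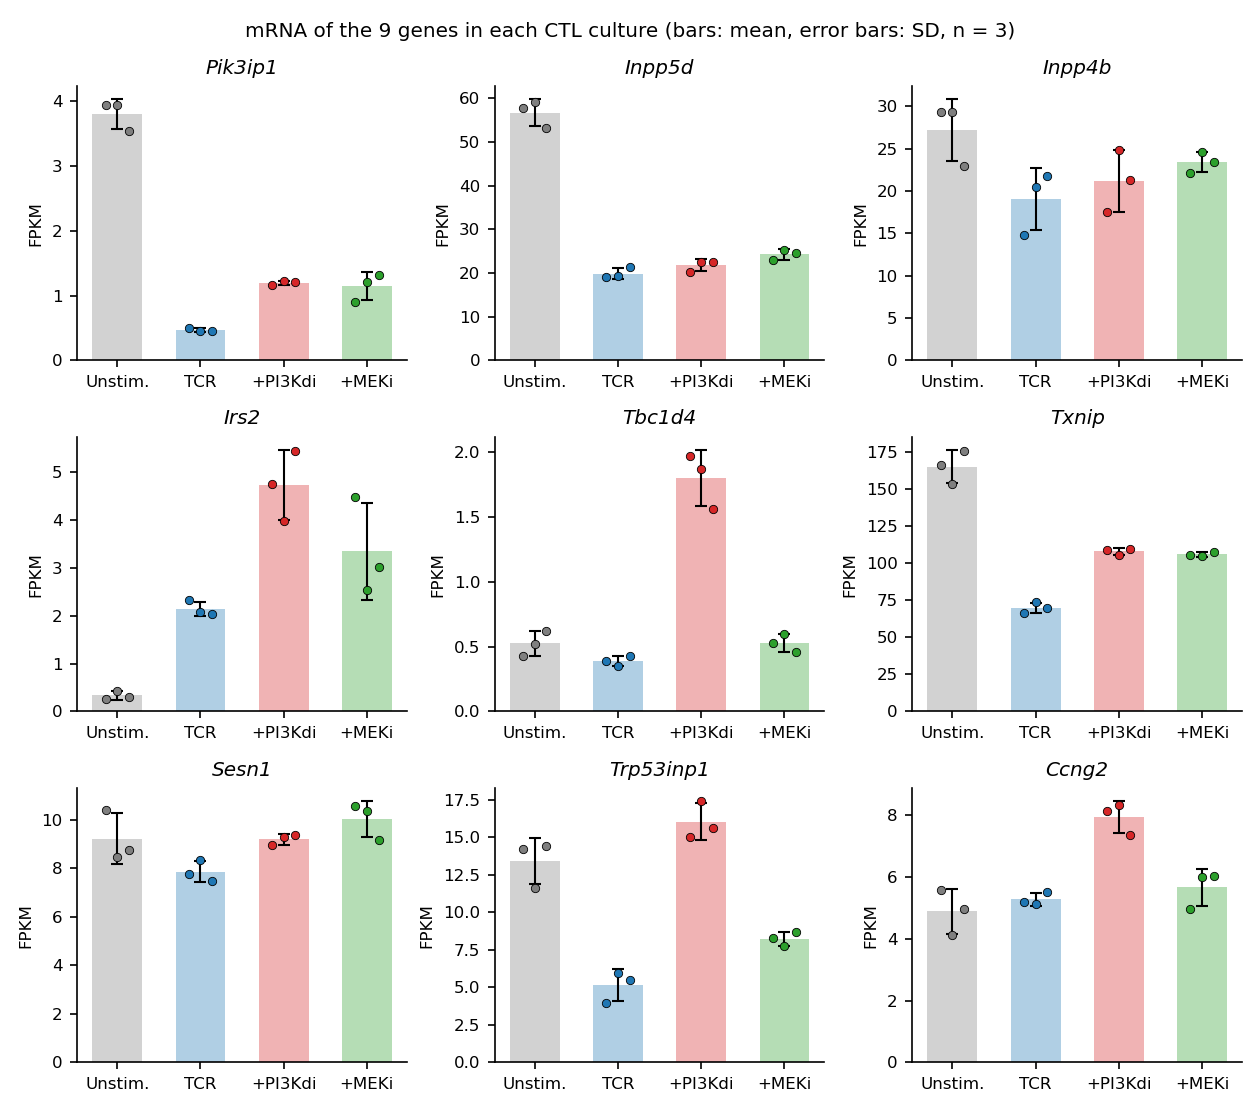
FPKM of each of the 9 genes (vertical axes, linear, from 0) in the 4 groups, with bars for the mean, error bars for the SD and a point for each of the 3 cultures. The Trp53inp1 cultures of all 4 groups are separate in FPKM, though those with the PI3K inhibitor and the unstimulated ones overlap once every culture is rescaled to the same FPKM sum, and Tbc1d4 lies at 1.56 to 1.97 FPKM with the PI3K inhibitor and at 0.35 to 0.62 FPKM in the other 9 cultures.

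The first comparison asked how these mRNAs change when CTL meet their peptide. Of the 9 genes, 4 were lower and 1 was higher after TCR stimulation by the study's thresholds, an adjusted p under 0.05 and a change above 2-fold, against 11.1% of all genes called lower and 8.87% called higher. The median log2 change was -0.52 over the 9 genes and -0.01 over all genes. The called genes were Pik3ip1, Inpp5d, Txnip and Trp53inp1, which were lower, and Irs2, which was higher. Log2 fold changes here are on the log2(FPKM + 0.1) scale, which understates changes of low genes. Rescaling every culture to the same FPKM sum (the TPM scale) moved the median of all genes to -0.42 and, with it, Inpp4b to -0.93, Tbc1d4 to -0.73 and Sesn1 to -0.63, all without a call, and again 5 of the 9 genes were called.

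Among the antagonists, Pik3ip1 had the largest difference. This gene (Entrez gene 216505, mm10 chromosome 11, 3330401 to 3342971, plus strand) encodes a membrane protein that binds the catalytic subunit of PI3K and holds its activity down. It was at 3.93, 3.93 and 3.53 FPKM in the unstimulated cultures, 0.50, 0.45 and 0.45 after TCR stimulation, 1.16, 1.22 and 1.21 with the PI3K inhibitor and 0.90, 1.21 and 1.32 with the MEK inhibitor. Every stimulated culture was below every unstimulated one, and the inhibitor cultures overlapped each other and lay above the TCR cultures. TCR stimulation thus left 12.3% of the unstimulated mean, 8.14-fold less, with a log2 fold change of -2.78 (SE 0.15, 95% CI -3.11 to -2.46). The PI3K inhibitor cultures were 2.56-fold above TCR (log2 1.20, SE 0.15, CI 0.87 to 1.52) and the MEK inhibitor cultures 2.45-fold (log2 1.12, CI 0.79 to 1.44), both called, and the inhibitor groups differed by -0.08 (CI -0.40 to 0.25). With a pseudocount of 1 in place of 0.1 the change of Pik3ip1 with TCR was -1.71, still called, and those with the inhibitors were 0.58 and 0.54, no longer called. With either of them the mean was still 31.5% or 30.1% of the unstimulated one.

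Inpp5d (Entrez gene 16331, chromosome 1, 87620312 to 87720507, plus strand) encodes SHIP1, the phosphatase of blood cells that removes a phosphate from PIP3. It was at 57.90, 59.09 and 53.21 FPKM in unstimulated CTL, 19.01, 19.24 and 21.44 after TCR stimulation, 20.29, 22.55 and 22.60 with the PI3K inhibitor and 22.94, 25.29 and 24.66 with the MEK inhibitor. The 9 stimulated cultures were all below the 3 unstimulated ones, the PI3K inhibitor cultures overlapped TCR, and the MEK inhibitor cultures were above both. The log2 fold change of TCR stimulation was -1.51 (SE 0.07, CI -1.66 to -1.36), called, which left 35.1% of the unstimulated mean. Against TCR the PI3K inhibitor gave 0.13 (CI -0.02 to 0.28) and the MEK inhibitor 0.29 (CI 0.14 to 0.44), neither called.

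Inpp4b (Entrez gene 234515, chromosome 8, 81342556 to 82127914, plus strand), a phosphatase that acts on the lipid that SHIP1 makes, varied more between cultures than between most groups. It was at 29.31, 29.34 and 22.97 FPKM in unstimulated CTL, 14.87, 20.51 and 21.79 after TCR stimulation, 17.51, 24.81 and 21.28 with the PI3K inhibitor and 22.18, 24.57 and 23.46 with the MEK inhibitor. Replicate 1 was the lowest culture in each of the 3 stimulated groups and not in the unstimulated one. TCR cultures were below unstimulated (log2 -0.52, CI -0.83 to -0.21) and below MEK inhibitor cultures (log2 0.31, CI 0.01 to 0.62) without overlap, while PI3K inhibitor cultures overlapped TCR (log2 0.16, CI -0.15 to 0.46). On the TPM scale the unstimulated cultures of Inpp4b lay above both inhibitor groups without overlap, whereas in FPKM they overlapped both. None of the differences of Inpp4b was called.

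Irs2 was the one gene of the 9 that was called higher after TCR stimulation. This gene (Entrez gene 384783, chromosome 8, 10984681 to 11008458, minus strand) encodes an adaptor that couples insulin and cytokine receptors to PI3K. It was at 0.27, 0.43 and 0.30 FPKM in unstimulated CTL, 2.32, 2.08 and 2.03 after TCR stimulation, 4.76, 3.98 and 5.45 with the PI3K inhibitor and 4.49, 2.53 and 3.03 with the MEK inhibitor. All stimulated cultures were above all unstimulated ones and both inhibitor groups were above TCR, with replicate 1 of the MEK inhibitor inside the range of the PI3K inhibitor. The mean was 6.43-fold above unstimulated with TCR (log2 2.39, SE 0.20, CI 1.96 to 2.82), and 14.2-fold and 10.1-fold with the PI3K and MEK inhibitors. The PI3K inhibitor gave 1.10 against TCR (SE 0.20, CI 0.67 to 1.53), called, and the MEK inhibitor 0.58 (CI 0.16 to 1.01), not called. Exons of an antisense gene cover 162 bases or 2.56% of the Irs2 exons. Without replicate 3 of the PI3K inhibitor group the change with the PI3K inhibitor was 0.99 and no longer above 2-fold. With a pseudocount of 1 it was 0.86 and not called, and the TCR change of Irs2 was 1.24, still called.

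Tbc1d4 (Entrez gene 210789, chromosome 14, 101442360 to 101609191, minus strand) encodes AS160, a substrate of AKT that controls the movement of glucose transporters to the cell surface. It was at 0.43, 0.52 and 0.62 FPKM in unstimulated CTL, 0.39, 0.35 and 0.43 after TCR stimulation, 1.97, 1.87 and 1.56 with the PI3K inhibitor and 0.53, 0.60 and 0.46 with the MEK inhibitor. The PI3K inhibitor cultures stood apart from the other 9, unstimulated and MEK inhibitor cultures overlapped, and the lowest unstimulated culture equalled the highest TCR culture. On the TPM scale the unstimulated and TCR cultures of Tbc1d4 did not overlap. Its mean under the PI3K inhibitor was 4.62-fold the TCR mean (log2 1.95, SE 0.18, CI 1.57 to 2.34), called, and 3.44-fold the unstimulated mean. The MEK inhibitor gave 0.36 against TCR (CI -0.03 to 0.75), not called, and -1.59 against the PI3K inhibitor (SE 0.18, CI -1.98 to -1.21), called. The whole difference lies below 2 FPKM, where the choice of pseudocount matters, and with a pseudocount of 1 the log2 changes were 1.01 against TCR and -0.87 between the inhibitors.

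**Figure D2:**
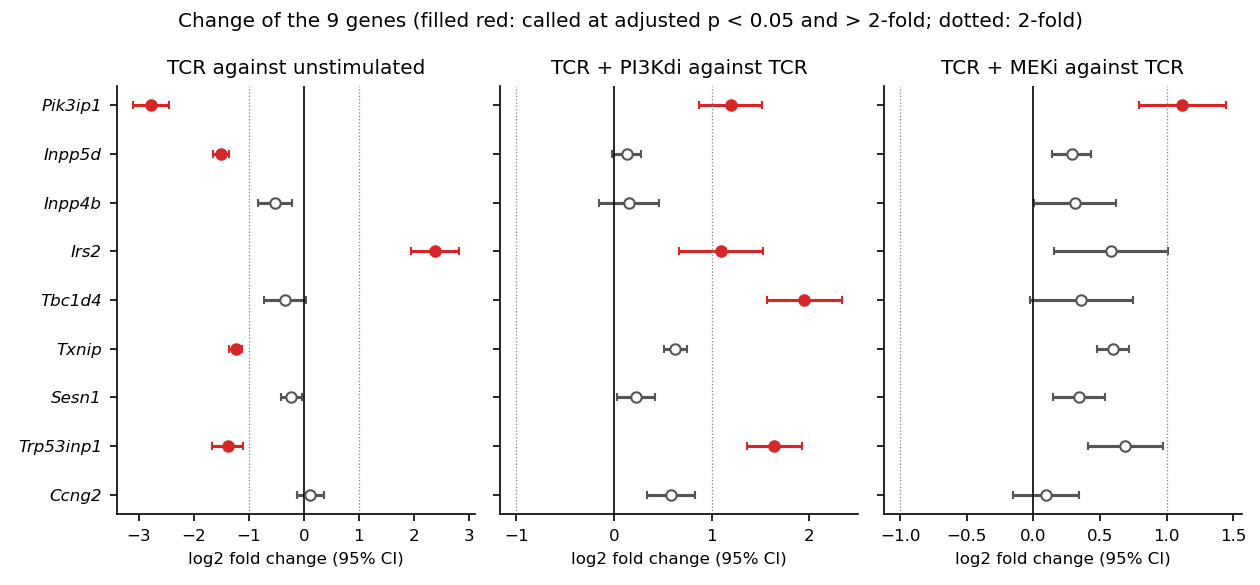
Log2 fold change of the 9 genes (horizontal axes, with 95% confidence intervals) after TCR stimulation against unstimulated, and with each inhibitor against TCR, where filled red points passed both thresholds and dotted lines mark 2-fold. With the PI3K inhibitor, the comparison on which the genes were selected, all 9 points lie above 0, from 0.13 for Inpp5d to 1.95 for Tbc1d4. The intervals of Inpp5d and Inpp4b hold 0 there.

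Txnip was the most abundant of the 9 mRNAs per kilobase in every culture. Its gene (Entrez gene 56338, chromosome 3, 96557957 to 96561883, plus strand) encodes an arrestin-like protein that binds thioredoxin and limits glucose uptake. The level was 166.00, 153.41 and 175.68 FPKM in unstimulated CTL, 66.63, 73.52 and 69.50 after TCR stimulation, 109.12, 105.32 and 109.47 with the PI3K inhibitor and 105.32, 104.62 and 107.68 with the MEK inhibitor. The inhibitor groups overlapped each other and lay between TCR and unstimulated, apart from both. TCR stimulation left 42.3% of the unstimulated mean (log2 -1.24, SE 0.06, CI -1.36 to -1.12), called, and with the PI3K and MEK inhibitors 65.4% and 64.2% were left. Against TCR the inhibitors gave 0.63 (CI 0.51 to 0.75) and 0.60 (CI 0.48 to 0.72), both under 2-fold. Exons of Gm15441 on the opposite strand cover 606 bases or 19.4% of the Txnip exons, and since the strand setting of the counting is not stated, reads of these genes cannot be told apart there.

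Trp53inp1 (Entrez gene 60599, chromosome 4, 11156431 to 11174379, plus strand), which encodes a stress protein induced by p53 that takes part in autophagy and cell death, was the gene whose cultures fell into 4 separate ranges of FPKM. The cultures were at 14.20, 11.62 and 14.40 FPKM unstimulated, 3.93, 5.94 and 5.52 after TCR stimulation, 15.04, 17.40 and 15.64 with the PI3K inhibitor and 8.27, 7.72 and 8.68 with the MEK inhibitor. No group overlapped another in FPKM, in the order PI3K inhibitor, unstimulated, MEK inhibitor and TCR, but the interval of the highest step, PI3K inhibitor against unstimulated, held 0 (log2 0.26, CI -0.02 to 0.54). On the TPM scale these 2 groups overlapped and the other groups stayed apart. TCR stimulation left 38.3% of the unstimulated mean (log2 -1.38, SE 0.13, CI -1.67 to -1.10), called. The PI3K inhibitor gave 3.12-fold the TCR mean (log2 1.64, SE 0.13, CI 1.36 to 1.93), called, and 120% of the unstimulated mean, while the MEK inhibitor gave 1.60-fold the TCR mean (log2 0.69, CI 0.41 to 0.97), not called. Between the inhibitors the log2 difference was -0.95 (CI -1.24 to -0.67), just inside the 2-fold threshold.

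Ccng2 and Sesn1 were the genes with the smallest response to TCR stimulation in fold. Ccng2 (Entrez gene 12452, chromosome 5, 93267257 to 93276231, plus strand), an atypical cyclin associated with cell cycle arrest, was at 5.57, 4.12 and 4.98 FPKM in unstimulated CTL, 5.18, 5.13 and 5.52 after TCR stimulation, 8.14, 8.34 and 7.37 with the PI3K inhibitor and 4.98, 5.99 and 6.05 with the MEK inhibitor. In FPKM only the PI3K inhibitor cultures stood apart, above the other 9. They were 1.51-fold above TCR (log2 0.58, SE 0.12, CI 0.33 to 0.83), not called, and 163% of the unstimulated mean, while the MEK inhibitor gave 0.10 (CI -0.15 to 0.35) against TCR. The TCR change was 0.12 (CI -0.13 to 0.36) and turned to -0.29 when every culture was rescaled to the same sum. On that scale the TCR cultures also stood apart, below the other groups.

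Sesn1 (Entrez gene 140742, chromosome 10, 41809935 to 41908424, plus strand) encodes a sestrin, which restrains TORC1 when amino acids are short. It was at 10.43, 8.47 and 8.77 FPKM in unstimulated CTL, 7.77, 8.33 and 7.48 after TCR stimulation, 8.95, 9.28 and 9.39 with the PI3K inhibitor and 10.56, 10.36 and 9.17 with the MEK inhibitor. The TCR cultures were the 3 lowest, and the other 3 groups overlapped in FPKM. On the TPM scale the PI3K inhibitor cultures lay below the unstimulated and MEK inhibitor ones without overlap. The log2 changes were -0.22 (CI -0.42 to -0.03) for TCR, 0.23 (CI 0.03 to 0.42) for the PI3K inhibitor and 0.35 (CI 0.15 to 0.54) for the MEK inhibitor, none of them called.

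The second comparison asked what the PI3K inhibitor changed in peptide-stimulated CTL. Of the 9 genes, 4 were called higher (Pik3ip1, Irs2, Tbc1d4 and Trp53inp1) and 0 lower, against 0.499% of all genes called higher and 1.38% called lower. Since the genes were selected on this comparison, nothing is read from that count. For 7 of the 9 every inhibitor culture was above every TCR culture, against 19.0% of all genes, and Inpp5d and Inpp4b were those that overlapped. The median log2 change was 0.63 over the 9 genes and 0.02 over all genes. With the MEK inhibitor, which is compared with the same TCR cultures, 1 gene was called higher (Pik3ip1) and 0 lower, against 0.98% of all genes called higher and 2.51% called lower, and the median was 0.36 against 0.01. Here 8 of the 9 genes did not overlap, all higher, against 24.6% of all genes, and Ccng2 was the one that did. The genes were selected on a comparison with these same TCR cultures. For either inhibitor, nothing is therefore read from these shares or medians. On the TPM scale Inpp5d with the PI3K inhibitor and Ccng2 with the MEK inhibitor no longer overlapped TCR.

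Set directly against each other, the inhibitors differed by the thresholds for 1 gene, Tbc1d4, lower with the MEK inhibitor, and for 0 in the other direction, against 1.71% and 1.39% of all genes. Trp53inp1 and Ccng2 were also lower with the MEK inhibitor in every culture, and Inpp5d was higher in every culture (log2 0.16, CI 0.01 to 0.30), without a call. With Tbc1d4, 3 of the 9 genes were thus lower without overlap and 1 was higher, against 22.7% and 20.9% of all genes. Nothing is read from these counts. For Pik3ip1, Inpp4b, Txnip, Sesn1 and Irs2 the groups overlapped, and the widest of these intervals was that of Irs2, -0.51 (CI -0.94 to -0.09). On the TPM scale the inhibitor groups of Sesn1 did not overlap.

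TCR + MEKi against Unstimulated is the one comparison that shares no culture with the comparison that chose the genes, and its p-values are from limma with Benjamini-Hochberg adjustment over all 11022 genes. Irs2 rose 10.1-fold (log2 2.97, SE 0.20, adjusted p = 7.66e-09), Pik3ip1 fell to 30.1% (log2 -1.66, SE 0.15, adjusted p = 2.36e-07) and Inpp5d fell to 42.8% of the unstimulated mean (log2 -1.22, SE 0.07, adjusted p = 1.14e-09). These 3 calls, 1 higher and 2 lower, stand against 6.95% of all genes called higher and 6.46% called lower. Fitted on the compared groups alone, the same 3 genes were called. The adjusted p of that limma fit were 3.77e-06 for Irs2, 1.26e-05 for Pik3ip1 and 1.74e-07 for Inpp5d. Txnip (log2 -0.64, adjusted p = 1.42e-07) and Trp53inp1 (log2 -0.69, adjusted p = 0.000366) were lower by less than 2-fold. The other 4 did not pass, with log2 changes of -0.21 for Inpp4b (adjusted p = 0.226), 0.02 for Tbc1d4 (0.931), 0.12 for Sesn1 (0.262) and 0.22 for Ccng2 (0.122). Their intervals were -0.52 to 0.10, -0.37 to 0.41, -0.07 to 0.32 and -0.03 to 0.46, and a p above the threshold does not show that they were equal.

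**Figure D3:**
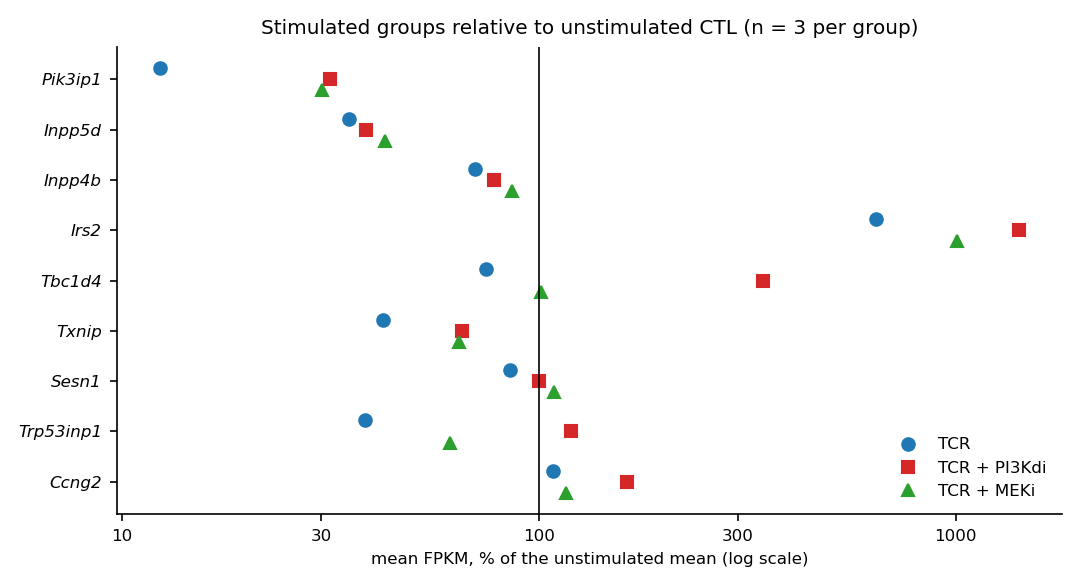
Mean FPKM of the stimulated groups as a percent of the unstimulated mean (horizontal axis, log scale; n = 3 cultures per mean) for the 9 genes. Both inhibitor groups of Pik3ip1 and Txnip lie between TCR and 100%, whereas with the PI3K inhibitor Trp53inp1 reaches 120%, Ccng2 163% and Tbc1d4 344%.

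The genes most alike to each of the 9 were taken by Pearson's r of log2(FPKM + 0.1) over the 12 cultures, among genes with a mean of at least 1 FPKM. The cultures form 4 groups, so that r mostly describes the order of the group means, and no p is given. Tbc1d4 was nearest to Neurl3 (r = 0.96) and Gimap6 (0.95), Trp53inp1 to Plekha2 (0.97) and Klhl6 (0.95), and Ccng2 to Aplp2 (0.93) and N4bp1 (0.91). Pik3ip1 was nearest to Brca1 and Pxk (both 0.99), Inpp5d to Gbp4 and Mcm4 (0.995 and 0.995), Txnip to Gimap7 and AW112010 (both 0.99), Irs2 to Xdh (0.99), Inpp4b to N4bp2 (0.95) and Ncor1 (0.94), and Sesn1 to Nudt16 (0.94) and Pddc1 (0.88). Within the 9 genes r ranged from 0.98 between Pik3ip1 and Txnip to -0.91 between Inpp5d and Irs2, and Tbc1d4 and Ccng2 stood at 0.85.

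Paralogues of the 9 genes were read from a list of 12, of which 11 were in the table. After TCR stimulation 2 of these 11 were called higher and 1 lower, against 8.87% and 11.1% of all genes. Against TCR, the shares of all genes were 0.499% and 1.38% with the PI3K inhibitor and 0.98% and 2.51% with the MEK inhibitor. These shares also stand beside the counts of the lists that follow. As the lists were chosen with earlier results known, nothing is read from their counts. Inpp4a, the relative of Inpp4b, rose from 0.89 ± 0.10 to 5.56 ± 0.05 FPKM (SD, n = 3; log2 2.52, SE 0.12, limma adjusted p = 8.77e-11). Of the sestrins, which restrain TORC1, Sesn2 rose from 17.7 ± 1.21 to 44.1 ± 1.30 FPKM (log2 1.31, adjusted p = 3.58e-10) and Sesn3 fell from 36.8 ± 0.18 to 15.5 ± 2.94 FPKM (log2 -1.26, adjusted p = 1.19e-07), while Sesn1 stayed within 2-fold. With the PI3K inhibitor 0 of the 11 paralogues were called in either direction, and their log2 changes against TCR ran from -0.56 for Sesn2 to 0.57 for Sesn3. At an adjusted p alone, without the fold threshold, Sesn2 and Sesn3 passed in that comparison. Sesn3 was named after its values were seen, so this is a description. Tbc1d1, the relative of Tbc1d4, was at 0.02 and Trp53inp2 at 0.26.

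**Figure D4:**
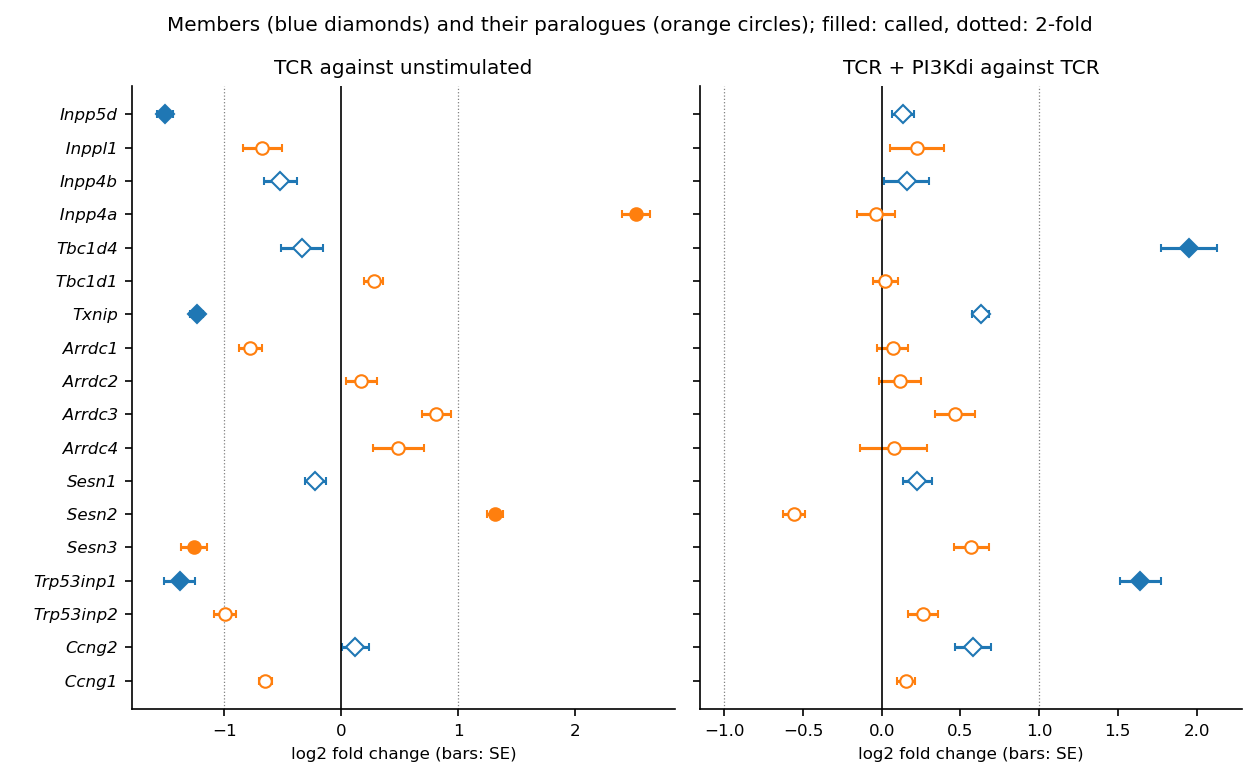
Log2 fold change (horizontal axes, bars are the SE) of the genes that have a listed paralogue in the table, shown as blue diamonds, and of their paralogues, shown as orange circles under each, after TCR stimulation and with the PI3K inhibitor against TCR. Filled symbols passed both thresholds, and with the PI3K inhibitor these are Tbc1d4 and Trp53inp1 alone among the genes drawn.

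The PI3K subunits and adaptors were all 10 in the table. Pik3cg, the p110γ subunit, fell from 18.9 ± 1.69 to 4.88 ± 0.10 FPKM after TCR stimulation (log2 -1.92, adjusted p = 1.26e-10), as did the low Pik3r3 (log2 -1.12, adjusted p = 0.00181), and 0 rose. Neither inhibitor changed any of the 10 against TCR by the thresholds. Pik3cd, the p110δ subunit that IC87114 inhibits, and Pik3r6 are named here after their values were seen, as a description without p-values. Pik3cd was at 221 ± 10.8 FPKM unstimulated, 119 ± 4.52 with TCR and 210 ± 12.4 with the PI3K inhibitor. Its log2 change against TCR was 0.82, under 2-fold. Pik3r6 went the other way, from 3.36 ± 0.60 FPKM with TCR to 1.64 ± 0.25 with the PI3K inhibitor (log2 -0.99, under 2-fold). Set against the PI3K inhibitor, Pik3r6 was called higher with the MEK inhibitor (log2 1.23). Among 13 further lipid phosphatases and AKT or TORC1 antagonists, 4 rose and 2 fell with TCR, led by Inpp4a and by Phlpp1, an AKT phosphatase (log2 1.65, adjusted p = 2.03e-08). Ddit4, a TORC1 inhibitor of the stress response, rose with the MEK inhibitor from 34.2 ± 2.62 to 90.5 ± 9.53 FPKM (log2 1.40, adjusted p = 7.36e-08) and was the one gene of this list called for either inhibitor. Of 11 AKT, TORC1 and TORC2 kinase genes 0 were called after TCR stimulation or with either inhibitor against TCR. The largest TCR changes there were -0.47 for Mapkap1 and -0.46 for Akt1, and both had an adjusted p under the threshold (0.000155 and 2.29e-06).

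Foxo1 was at 14.2 ± 1.16 FPKM unstimulated, 15.1 ± 0.69 with TCR and 16.6 ± 0.73 with the PI3K inhibitor, and of the 3 FOXO factors in the table Foxo4 fell with TCR (log2 -2.02, adjusted p = 2.49e-06) and 0 were called for an inhibitor. Of 6 FOXO1 targets of lymphoid homing, 1 was called higher and 0 lower with the PI3K inhibitor against TCR. The shares of all genes were 0.499% and 1.38%. The median log2 change of the 6 was 0.63, against 0.02 over all genes. With the MEK inhibitor 2 were called higher and 0 lower, against 0.98% and 2.51% of all genes, with a median of 0.52 against 0.01. These 2 were the transcription factor gene Klf2 (log2 2.05, adjusted p = 3.08e-06) and the IL-7 receptor gene Il7r (log2 1.15, adjusted p = 4.22e-05). With TCR alone S1pr1 fell (log2 -2.35, adjusted p = 8.26e-06) and Tcf7 rose (log2 1.45, adjusted p = 8.49e-05). Of 16 other FOXO targets of stress, quiescence and autophagy, 6 rose and 2 fell with TCR, the largest being Bcl6 (log2 2.58, adjusted p = 2.50e-09) and Bcl2l11, which encodes the death protein BIM (log2 2.36, adjusted p = 3.01e-14). With either inhibitor 0 of these 16 were called against TCR, and their medians were 0.25 under PI3K inhibition and 0.14 under MEK inhibition.

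Of 9 genes of p53 and its targets, Phlda3 fell with TCR (log2 -1.16, adjusted p = 3.18e-06), 0 rose, and 0 were called for an inhibitor against TCR, with medians of 0.06 for the PI3K inhibitor and 0.54 for the MEK inhibitor. The MondoA factor Mlxip and its partner Mlx were not called anywhere, Mlxip being at 0.61 with TCR (adjusted p = 1.68e-05). Of 8 genes that ERK signalling drives or that feed back on it, 4 rose with TCR, led by Spry1 (log2 7.04, adjusted p = 9.04e-14) and Spry2 (log2 2.67, adjusted p = 3.82e-12). With the MEK inhibitor 4 fell, namely Egr1 (log2 -4.27, adjusted p = 2.14e-11), Spry1 (log2 -1.71, adjusted p = 6.09e-06), Dusp6 (log2 -1.63, adjusted p = 2.23e-08) and Etv5 (log2 -1.08, adjusted p = 0.000214), and with the PI3K inhibitor 0 were called.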

How the data were processed

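RNA of 12 CTL cultures was sequenced as paired-end reads of 100 bases from stranded mRNA libraries. The authors aligned the reads to mm10 with STAR 2.4.2a, counted them per RefSeq gene with Subread 1.5.0, removed low genes, scaled the counts by TMM in edgeR and deposited FPKM over the summed exon length of each gene, to 2 decimals. Whether the counting used strand is not stated, and the counts on which the study ran limma-voom were not used here.

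Columns were assigned to cultures by their headers. Total reads per culture are not in the table. Low values were compared with whole reads over GENCODE exon lengths, and 35.9 to 42.3% of them came within 0.15 of a whole number of reads, against 30% for values without steps, so depth is treated as unknown. The sum of FPKM was 470420 to 666922 per culture.

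limma was run on log2(FPKM + 0.1) of all 11022 genes and 12 cultures, with 1 coefficient per group and no other term (limma 3.58.1, R 4.3.3, trended eBayes). A call needed a Benjamini-Hochberg adjusted p below 0.05 and more than 2-fold change. Intervals are 95%. The 9 genes and the lists were chosen with earlier results of these data known. Named from each list were genes called for an inhibitor against TCR and up to 2 with the largest TCR change. Pik3cd, Pik3r6, Sesn3, Tbc1d1, Trp53inp2 and Mlx were named after their values were seen. Some genes that the naming rule picked are not reported here. Positions are from GENCODE M21 on GRCm38, and stretches of 100 bases shared with other genes were found for Txnip (12.1%, with Gm15441) and Irs2 (1.01%, with an antisense gene). Figures and sequence searches used Python 3.11.15, NumPy 2.4.6, pandas 2.3.3 and matplotlib 3.10.9.

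Replicate numbers come from the labels, with no statement on whether a number marks 1 of the 3 mice. Deviations from the group means of same-numbered cultures correlated across 9899 genes at 0.24 to 0.45 between TCR and PI3K inhibitor cultures. In the comparisons with the MEK inhibitor the correlations were 0.12 to 0.18, and between TCR and unstimulated cultures 0.10, 0.15 and 0.004. Same-numbered cultures may thus be related, but the main fit treats all cultures as unpaired. Pairing enters only through the replicate block, 1 of the alternatives. P-values measure the spread between these cultures. As alternatives, 1 and 0.01 were added in place of 0.1, genes under a mean of 1 FPKM were removed, cultures were rescaled to a common sum (the TPM scale) or quantile normalised, a replicate block was added, and the compared groups alone, no trend, no fold threshold and the removal of each culture were tried.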

Additional observations from a re-analysis of the deposited data

Results flagged for a closer look

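Tbc1d4 was the one of the 9 genes for which the effects of the inhibitors, each taken against the same TCR cultures, differed by the thresholds. The MEK inhibitor effect minus the PI3K inhibitor effect was -1.59 on the log2 scale (SE 0.18, 95% CI -1.98 to -1.21), from 1.80 FPKM with the PI3K inhibitor and 0.53 FPKM with the MEK inhibitor, and all 3 MEK inhibitor cultures were the lower ones. The gene was among those selected on the PI3K inhibitor comparison, so the value is a description.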

How the results depend on the processing

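In the order TCR against unstimulated, PI3K inhibitor against TCR, MEK inhibitor against TCR, MEK against PI3K inhibitor and MEK inhibitor against unstimulated, 2202, 207, 385, 341 and 1478 of all genes and 5, 4, 1, 1 and 3 of the 9 genes were called. A pseudocount of 1 gave 1405, 90, 201, 150 and 873 genes, and of the 9 genes 2 under PI3K inhibition, 0 under MEK inhibition and 0 between the inhibitors, because it shrinks Pik3ip1, Irs2 and Tbc1d4. A filter at a mean of 1 FPKM removed Tbc1d4 and left 0 between the inhibitors. With adjusted p alone 7559, 2818, 4090, 3185 and 6571 genes passed, and 6, 3 and 5 of the 9 in the last 3 comparisons. On the TPM scale 578 genes were called for the MEK inhibitor against TCR, and the median gene shifted to -0.42, 0.20, 0.27, 0.07 and -0.15, so that the share of called genes that were higher was 22.2% against 44.4%, 56.8% against 26.6%, 63.3% against 28.1%, 54.0% against 44.9% and 39.6% against 51.8% with the deposited scaling. The calls of the 9 genes numbered the same on that scale.

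The value of Tbc1d4 for the MEK inhibitor against unstimulated, 0.02, turned to -0.11 on the TPM scale, -0.031 after quantile normalisation, and to between -0.091 and 0.13 when 1 culture was left out (-0.091 without unstimulated replicate 1, -0.058 without MEK inhibitor replicate 2), and that of Sesn1, 0.12, to -0.027 on the TPM scale. None of these passed the test, and the cause was not tested. Leaving out 1 culture gave 2172 to 2268, 195 to 241, 377 to 440, 330 to 368 and 1466 to 1529 genes, and for the 9 genes 3 to 4 for the PI3K inhibitor against TCR (3 without replicate 3 of the PI3K inhibitor, where Irs2 was at 0.99) and the same counts elsewhere. With a replicate block, which treats same-numbered cultures as paired, 2206, 209, 389, 349 and 1478 genes and again 5, 4, 1, 1 and 3 of the 9 were called. Depth is unknown and limits Tbc1d4, Irs2 and Pik3ip1 most, as they lie lowest.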
